A study of Drosophila melanogaster with 12 samples.

Results

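Gene expression in heads of Drosophila melanogaster was compared between flies taken 24 h after conditioning (3 arrays) and flies taken 0 h after conditioning (3 arrays). These 6 arrays were chosen by the wording of the sample descriptions, out of 12 arrays in the series. The remaining 6 arrays are the matching non-conditioned heads, 3 at 0 h and 3 at 24 h. All arrays carry total RNA of whole heads, and all 4 groups carry the label OR, which the labels do not expand. The treatment is given as a behavioral stimulus without further detail, and no age, sex, rearing or number of heads is given, so the hour of day and the feeding state at each sampling are not known. The labels call the 2nd and 3rd arrays of conditioned heads at 0 h, and 1 array at 24 h, biological duplicates of another array. They do not say whether the arrays came from separate batches of flies, so the p-values measure the spread between these arrays.

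A fly head holds the brain and the eyes, but also cuticle, the muscles of the proboscis and antennae, blood cells and a layer of fat body. The fat body is the insect counterpart of liver and adipose tissue: it stores lipid and sugar, breaks down amino acids and foreign compounds, secretes yolk proteins in females and makes antimicrobial peptides after infection. In a whole-head extract, a lower level of a transcript can come from fewer cells of a type or from less of the transcript per cell, and these cannot be told apart.

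The values are linear hybridisation intensities, 1 per probe set. Changes are differences of log2(intensity + 16), 24 h minus 0 h, with the standard error from the fit, so that a change of 1 stands for a doubling in bright probe sets and understates the change in dim ones. The adjusted p is limma's moderated test with Benjamini-Hochberg adjustment over 11261 probe sets, with a threshold of 0.05. Log2 intensities correlated between replicate arrays at 0.993 to 0.994 for conditioned heads at 0 h and at 0.994 to 0.995 at 24 h. Neuron, glia and photoreceptor markers were bright on all arrays. All 7 accessory gland markers were below 20 on every conditioned array, and 3 of 4 gut markers were below 20 in each conditioned group. The summed neuron markers ran from 2541 to 2671 at 0 h and from 2368 to 2392 at 24 h, and the groups did not overlap. Taken singly, nSyb and ChAT were lower at 24 h without overlap, while elav, brp and para overlapped. The neuron sum in non-conditioned heads ran from 2485 to 2565 at 0 h and from 2348 to 2406 at 24 h, also without overlap. The summed head fat body markers, in which Lsp2 is the largest term, ran from 4157 to 4851 at 0 h and from 6687 to 8325 at 24 h. The same sum in non-conditioned heads ran from 4751 to 5232 at 0 h and from 5940 to 8416 at 24 h. The ratio of 3' to 5' actin signal, a measure of RNA integrity, was 1.77 to 2.16 at 0 h and 1.89 to 2.04 at 24 h.

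Yolk protein transcripts, made by the female fat body and ovary, split the conditioned arrays across the time points. Yp1 read 1.07, 3.72 and 4532 in replicates 1 to 3 at 0 h, and 5026, 6653 and 20.8 in replicates 1 to 3 at 24 h. Yp1, Yp2 and Yp3 were thus high on replicate 3 at 0 h and on replicates 1 and 2 at 24 h, and they were not high on any non-conditioned array, where Yp1 was between 7.47 and 17.6. Neither time group is uniform for these transcripts, so their time difference did not pass the test (Yp1: log2 change 3.22 ± 1.84, adjusted p = 0.389 by limma). The fit had no term for yolk signal. Results with such a term, and without the 3 arrays, follow at the end.

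**Figure D1:**
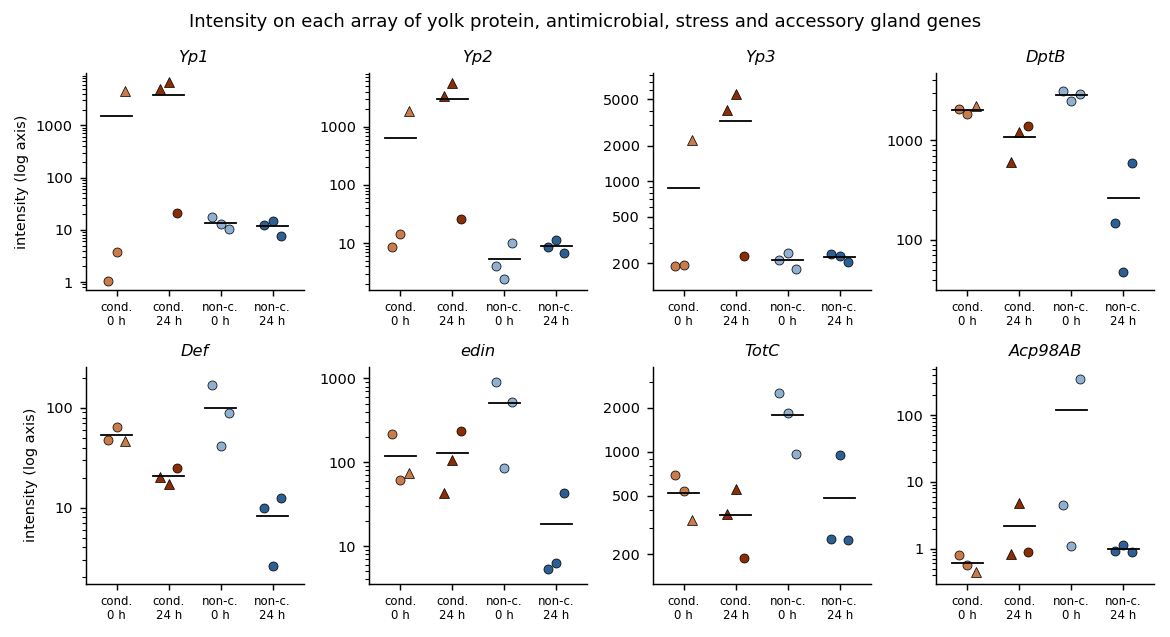
Intensity on a log axis for each of the 12 arrays, with a bar at the mean of each group of 3 and triangles for the 3 arrays with yolk signal. Yp1 reads 4532 on 1 array at 0 h and 5026 and 6653 on 2 arrays at 24 h. DptB stays between 609 and 1399 in conditioned heads at 24 h and falls to between 47.5 and 597 in non-conditioned heads at 24 h.

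Between 0 h and 24 h after conditioning, 520 of 11261 probe sets passed the threshold, which is 4.62% of those tested. Of these, 301 were higher at 24 h (2.67%) and 219 were lower (1.94%). Most of the differences were small: 441 of the 520 (84.8%) were under 1.5-fold, and 13 were over 2-fold, 4 of them higher and 9 lower. The median change was 0.37 among the higher probe sets and -0.32 among the lower ones, against -0.01 over all probe sets tested. The 3 arrays at 24 h did not overlap the 3 at 0 h in 518 of the 520, against 28.2% of all probe sets. At an unadjusted p under 0.05 there were 2050 probe sets. Counted by gene, with the brightest probe set standing for each of 8610 genes, 250 genes were higher (2.90%) and 175 lower (2.03%). The count rests on all 6 arrays: it was 322, 339 and 222 without replicates 1, 2 and 3 at 0 h, and 264, 251 and 274 without replicates 1, 2 and 3 at 24 h. The shares by gene of 2.90% and 2.03% are those to set beside the list counts below. All 33 gene lists were chosen with earlier results of these data known, so their counts are not independent of those results.

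Among genes with a symbol that passed the threshold, the largest rise was that of tobi, an alpha-glucosidase known as a target of brain insulin signalling that responds to dietary protein and sugar. Its intensity was 195, 162 and 150 at 0 h and 487, 534 and 473 at 24 h. The groups lay far apart, and the log2 change was 1.48 ± 0.09 (adjusted p = 1.13e-07, limma). The next of these was CG7997, with 365, 349 and 311 at 0 h and 742, 722 and 691 at 24 h, a change of 1.04 ± 0.07 (adjusted p = 2.51e-07, limma). Cyp4ac1, a cytochrome P450, read 351, 370 and 329 at 0 h and 740, 692 and 656 at 24 h, a change of 0.96 ± 0.06. These 3 genes showed the same picture, with 3 tightly grouped arrays on each side. Groups that do not overlap were a condition for naming the largest changes, so their separation is not a separate result. Had1 (0.96 ± 0.08), CG31075 (0.97 ± 0.07), CG32444 (0.91 ± 0.08), CG13868 (0.88 ± 0.11), CG9416 (0.86 ± 0.09) and CG9377 (0.89 ± 0.12) rose by amounts close to a doubling. CG6733 was dim, with 15.1, 20.3 and 13.2 at 0 h and 42.2, 47.0 and 43.0 at 24 h, so that its log2 change of 0.91 ± 0.13 understates a ratio of means of 2.72. Of these 10 genes, each passed the threshold with any single array left out.

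The prophenoloxidase genes PPO1 and PPO2, whose products start melanin formation in insect blood and are stored in crystal cells, were among the higher genes. PPO1 read 198, 251 and 195 at 0 h and 433, 410 and 406 at 24 h, a change of 0.91 ± 0.08. PPO2 read 189, 226 and 193 at 0 h and 358, 387 and 357 at 24 h, a change of 0.81 ± 0.11 (adjusted p = 0.000366, limma). The head fat body sum rose over the same interval, and its part in these results was not tested.

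**Figure D2:**
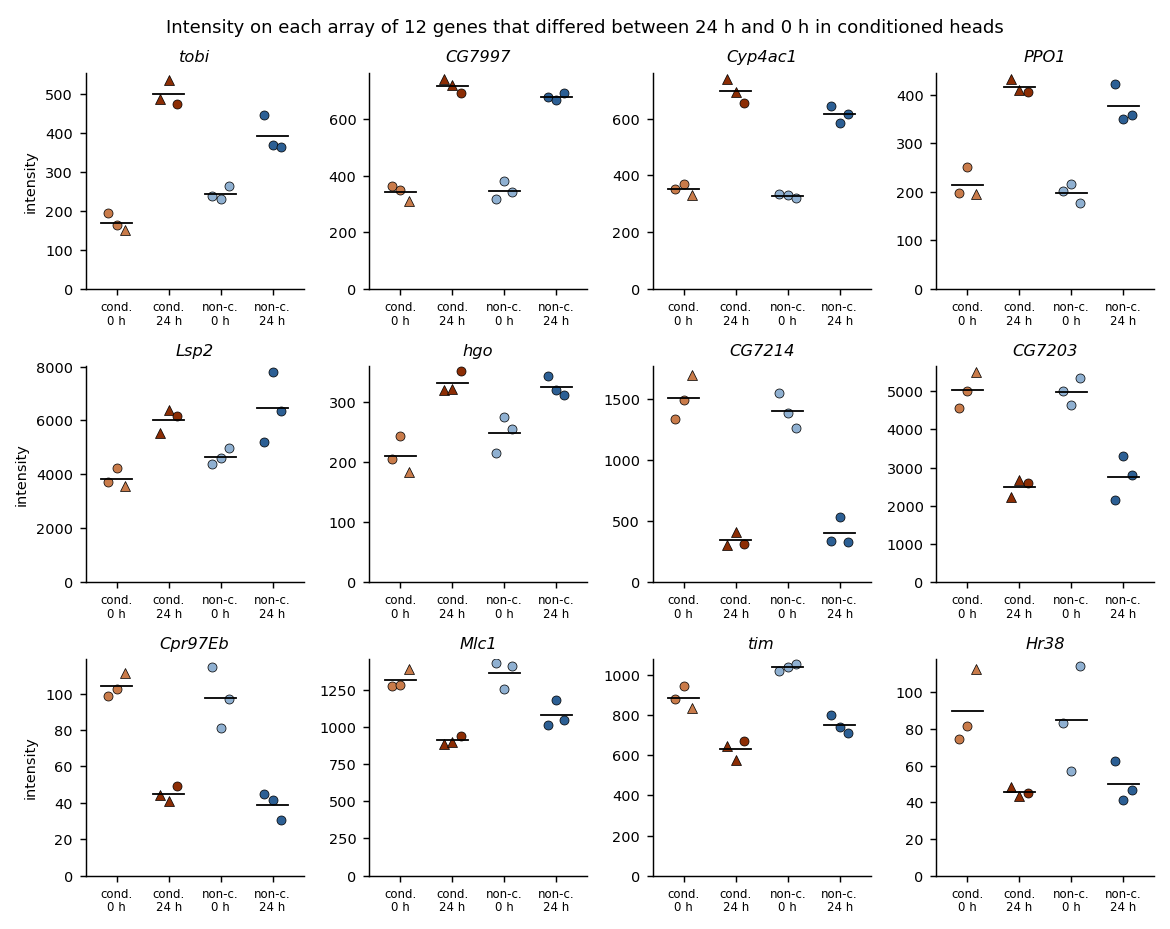
Intensity, from 0, on each of the 12 arrays for 12 genes that passed the threshold in conditioned heads, with a bar at the mean of each group of 3 and triangles for the 3 arrays with yolk signal. In the conditioned arrays, tobi lies between 150 and 195 at 0 h and between 473 and 534 at 24 h, and CG7214 between 1337 and 1699 at 0 h and between 306 and 410 at 24 h.

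Tested genes of insulin signalling and the response to nutrients, a list not independent of earlier results of these data, had a median of 0.16. The median over all genes was -0.01. Among these 18 genes, 4 rose and 0 fell (2.90% and 2.03% over all genes). Beside tobi these were AkhR, the receptor for adipokinetic hormone, which mobilises stored fuel from the fat body; Ilp5, an insulin-like peptide of brain neurosecretory cells; and REPTOR, a transcription factor held back by TOR signalling. AkhR read 594, 565 and 524 at 0 h and 744, 775 and 734 at 24 h, without overlap, a change of 0.41 ± 0.06 (adjusted p = 0.000644, limma). Ilp5 changed by 0.32 ± 0.07 and REPTOR by 0.34 ± 0.09. The calls for Ilp5 and REPTOR were the less firm ones: the list's count fell from 4 to 2 without replicate 2 or 3 at 0 h, or without replicate 1, 2 or 3 at 24 h.

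Of 20 genes listed for lipid storage and mobilisation, 2 rose and 1 fell (2.90% and 2.03% over all genes), and the median was 0.05. The higher ones were Lsp2, a storage protein of fat body, and mdy, a diacylglycerol acyltransferase that makes triglyceride. Lsp2 stores protein rather than lipid, and it is counted again in the head fat body list. Lsp2 read 3726, 4233 and 3574 at 0 h and 5526, 6377 and 6159 at 24 h, a change of 0.65 ± 0.12 (adjusted p = 0.00528, limma), which reached an adjusted p of 0.0522 without replicate 3 at 0 h. The change of mdy was 0.48 ± 0.07. Lsd-1, the perilipin that coats lipid droplets, was lower by -0.30 ± 0.08, and its adjusted p of 0.0332 reached 0.154 without replicate 1 at 24 h. In the list of 12 head fat body genes, 2 rose, Lsp2 and smp-30, and 0 fell, with a median of 0.11. The brighter probe set of smp-30, a gene of the regucalcin family, rose by 0.91 ± 0.07, while its other probe set changed by 0.30 (adjusted p = 0.248, limma). The female-biased fat body gene fit read 427, 617 and 628 at 0 h and 1375, 1946 and 527 at 24 h, high on the yolk arrays at 24 h and not on the yolk array at 0 h (adjusted p = 0.0928, limma). Among 19 genes of glycolysis and gluconeogenesis the 1 that passed was fbp, fructose-1,6-bisphosphatase, with 0.42 ± 0.06. Among 7 maltase and amylase genes the 1 that passed was tobi, which is already counted in the insulin list.

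Of 20 genes listed for amino acid breakdown, 4 rose and 0 fell (2.90% and 2.03% over all genes), with a median of 0.06. They were hgo, homogentisate 1,2-dioxygenase of tyrosine degradation, with 204, 243 and 183 at 0 h and 320, 322 and 351 at 24 h (0.62 ± 0.09, adjusted p = 0.00106, limma); CG10621 (0.48 ± 0.08); Oat, ornithine aminotransferase (0.31 ± 0.07); and CG8036 (0.22 ± 0.06). The enzyme just upstream of hgo, 4-hydroxyphenylpyruvate dioxygenase (Hpd), which is not in that list, read 990, 991 and 832 at 0 h and 1405, 1429 and 1414 at 24 h, a change of 0.59 ± 0.06 (adjusted p = 3.49e-05, limma). The other enzymes of the tyrosine route on the list, Faa (0.20, adjusted p = 0.0649) and Tat (0.06, adjusted p = 0.726), did not pass. The count of 4 was 2 without replicate 3 at 0 h or without replicate 3 at 24 h. CG10621 and CG8036 are counted among the 4, although their part in amino acid breakdown is not certain.

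Genes that handle foreign and endogenous small molecules passed mostly as higher. Of 57 cytochrome P450 genes, 9 rose and 1 fell (2.90% and 2.03% over all genes). The median was 0.11 against -0.01 over all genes, and 38 of 57 were above 0. The 4 with the lowest p were Cyp6d2, which read 69.7, 65.2 and 55.0 at 0 h and 136, 123 and 121 at 24 h (0.85 ± 0.11), Cyp28d1 (0.43 ± 0.06), Cyp6t1 (0.47 ± 0.07) and Cyp6a21 (0.71 ± 0.11). Cyp4ac1, described above, was not on that list. The 1 that fell was Cyp6w1, with -0.36. The 9 became 5 without replicate 3 at 24 h. Without the 3 yolk arrays the change was 0.24 for Cyp6a21, 0.78 for Cyp6d2, 0.35 for Cyp28d1 and 0.45 for Cyp6t1. Of 39 glutathione and UDP transferase genes, 6 rose and 0 fell, with a median of 0.15 and 33 of 39 above 0. Among them, GstD9, of the delta class of glutathione transferases, rose by 0.27 ± 0.06 and GstZ2, of the zeta class, by 0.34 ± 0.08. GstE10 read 2.84, 3.11 and 3.80 at 0 h and 15.8, 17.1 and 14.7 at 24 h; it was higher on every array at 24 h, but its 0 h level lies below the lowest mean kept by the filter (8.38), and the fitted change ran from 0.25 to 2.0 with the settings, so no size is given. These 6 calls were close to the threshold: 0 passed without replicate 1 or 3 at 0 h, 0 without replicate 1 or 3 at 24 h, and 1 without replicate 2 at 24 h. Of 13 antioxidant genes 0 rose and 1 fell, the extracellular superoxide dismutase Sod3 (-0.26 ± 0.07, adjusted p = 0.0331, and 0.137 without replicate 3 at 0 h).

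Among genes with a symbol that passed the threshold, the largest fall was that of CG7214, which was placed with the cuticle genes although its role is not certain. It read 1337, 1490 and 1699 at 0 h and 306, 410 and 309 at 24 h, a change of -2.10 ± 0.15 (adjusted p = 5.44e-07, limma). CG7203, a bright gene placed in the same list on the same terms, read 4570, 4997 and 5491 at 0 h and 2238, 2667 and 2593 at 24 h, a change of -1.0 ± 0.12. Cpr97Eb, which carries the chitin-binding domain of insect cuticle proteins, read 98.7, 103 and 111 at 0 h and 44.5, 40.8 and 49.5 at 24 h, a change of -0.98 ± 0.12. In all 3 genes the highest array at 24 h was below the lowest at 0 h, which was a condition for naming the largest changes. In the list of 38 cuticle genes, 6 fell and 1 rose (2.03% and 2.90% over all genes), and the median was -0.10. The 6 include CG7214, CG7203 and Cpr97Eb. The list was chosen with earlier results of these data known, so its count is not independent of CG7214 and CG7203. The other genes that fell were Cpr100A (-0.50 ± 0.06), Cpr49Ag (-0.71) and Cpr49Ae (-0.38), and the 1 that rose was Cpr60D (0.46). The number that fell was 5 or 6 with any single array left out, whereas Cpr60D missed the threshold without replicate 2 or 3 at 0 h, or without replicate 1, 2 or 3 at 24 h. The fall was thus not shared by most of the list: 31 of the 38 genes did not pass in either direction.

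Other genes also fell by large amounts. CG4000 fell from 2026, 1966 and 2188 to 1041, 1146 and 1044, a change of -0.93 ± 0.07 (adjusted p = 8.48e-07, limma). CG11458 fell by -1.11 ± 0.11, CG14022 by -1.06 ± 0.11 and CG8736 by -1.01 ± 0.15. CG3348 fell from 163, 192 and 536 to 82.5, 71.2 and 73.4, so that replicate 3 at 0 h stood well above the other arrays, and its adjusted p of 0.0176 became 0.127 without that array. Sid, a stress-induced DNase, changed by -0.88 ± 0.23, and its adjusted p of 0.0401 became 0.209 without replicate 2 at 24 h. CG42807 changed by -0.86 ± 0.17, with an adjusted p of 0.00858 that became 0.0541 without replicate 3 at 0 h. NimB1, of the Nimrod family of EGF-repeat proteins found in blood cells, was dim but separated: 28.5, 42.0 and 41.6 at 0 h and 16.9, 14.1 and 10.9 at 24 h, a change of -0.83 ± 0.14.

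Of 21 tested muscle genes, 9 fell and 0 rose (2.03% and 2.90% over all genes). All 21 changes were below 0, with a median of -0.22, and 12 of them did not pass. Mlc1, the alkali myosin light chain, showed the largest change: it read 1271, 1281 and 1389 at 0 h and 887, 898 and 939 at 24 h, a change of -0.52 ± 0.07 (adjusted p = 0.000248, limma). The Z-disc gene Zasp66 changed by -0.37 ± 0.05, its relative Zasp52 by -0.22 ± 0.05, and up, which encodes troponin T, by -0.35 ± 0.06. The tropomyosin gene Tm2 changed by -0.35 ± 0.07, Mlp84B, a LIM protein of the Z-disc, by -0.32 ± 0.06, the myosin regulatory light chain Mlc2 by -0.28 ± 0.07, the thick filament gene Mf by -0.35 ± 0.09 and the muscle actin Act87E by -0.27 ± 0.07. Zasp66 has 3 tested probe sets, of which 1 more fell (-0.41) and the other did not pass (0.32, adjusted p = 0.219, limma). The 9 calls became 5 without replicate 1 or 2 at 0 h, 4 without replicate 3 at 0 h and 4 without replicate 2 or 3 at 24 h, and 0 without the 3 yolk arrays, where the median was -0.31. The defining flight muscle markers were near background on these arrays: 3 of 5 were measured, and their sum was 32.5 to 83.3 at 0 h and 44.9 to 48.8 at 24 h, with overlap.

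**Figure D3:**
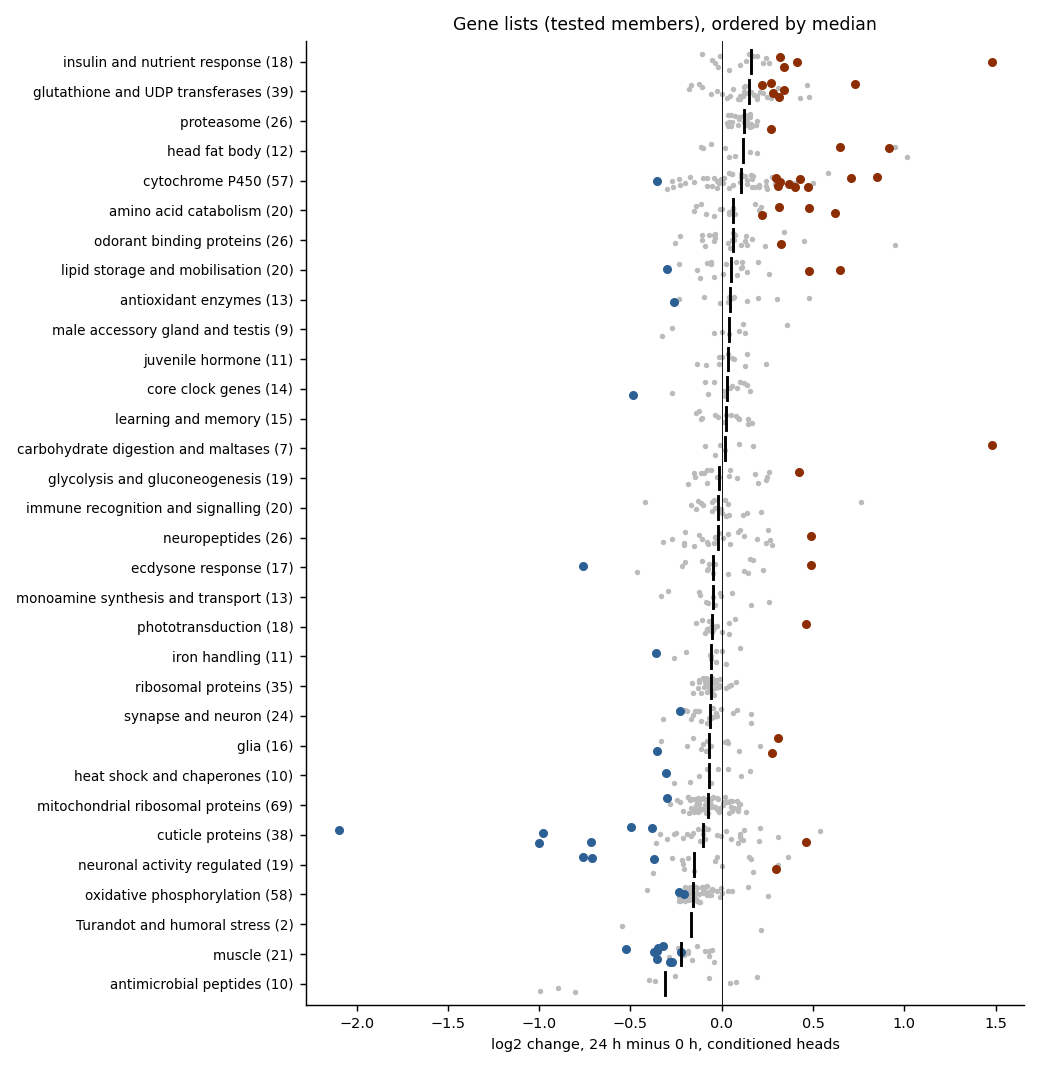
Each point is 1 tested gene of a list, placed at its log2 change, 24 h minus 0 h, in conditioned heads; coloured points passed the threshold (red higher, blue lower), the black bar is the list's median, and the number of tested genes stands in brackets. The list of female and yolk genes is left out because its changes reach 3.22. All 21 muscle genes lie below 0 and all 26 proteasome genes above 0, while most lists are centred near 0.

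Of 19 genes that respond to neuronal activity 3 fell and 1 rose (2.03% and 2.90% over all genes), with a median of -0.15. Without the 3 yolk arrays the median was 0.02 and 0 passed. CG14186 read 623, 530 and 659 at 0 h and 370, 331 and 387 at 24 h, a change of -0.71 ± 0.08 (adjusted p = 0.000128, limma). Hr38, a nuclear receptor of the NR4A class used as a mark of recent neuronal activity in insects, read 74.6, 81.7 and 113 at 0 h and 48.5, 43.5 and 45.3 at 24 h, a change of -0.76 ± 0.16. Its adjusted p of 0.0125 became 0.0937 without replicate 3 at 0 h, and its other probe set changed by -0.07 (adjusted p = 0.867, limma). The zinc finger gene cbt changed by -0.37 ± 0.08, with an adjusted p of 0.0094 that became 0.0857 without replicate 3 at 0 h, and CG12910 rose by 0.29 ± 0.08. Without replicate 3 at 0 h the count of genes that fell was 1. In the overlapping list of 17 ecdysone response genes, Hr38 fell and EcR, the ecdysone receptor, rose. EcR read 113, 119 and 95.5 at 0 h and 168, 158 and 152 at 24 h, a change of 0.49 ± 0.13. Its adjusted p of 0.0386 became 0.238 without replicate 3 at 0 h and missed the threshold in 6 of 12 fits with 1 array left out. With a term for yolk signal the change was 0.52 (adjusted p = 0.0518, limma). Without the 3 yolk arrays it was 0.08.

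Of 14 core clock genes, tim was the 1 that passed. This partner of per in the feedback loop of the clock read 881, 948 and 839 at 0 h and 648, 577 and 671 at 24 h, a change of -0.48 ± 0.07 (adjusted p = 0.000451, limma), and its other probe set gave -0.47 (adjusted p = 0.0316). The gene per changed by -0.27 ± 0.10 (adjusted p = 0.137), Clk by 0.14 ± 0.10 (adjusted p = 0.517) and cry by 0.08 ± 0.07 (adjusted p = 0.591). Transcripts of tim and per cycle over the day in fly heads, and the labels give no hour of sampling. A 2nd clock gene passed without replicate 3 at 24 h.

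None of the 15 learning and memory genes passed, which is close to the share over all genes (2.90% higher and 2.03% lower) and shows nothing particular to them; the same holds for the short lists below with 0 or 1 calls. The adenylyl cyclase rut, a classical memory gene, read 193, 172 and 199 at 0 h and 177, 195 and 183 at 24 h (-0.02 ± 0.09, adjusted p = 0.944, limma). The phosphodiesterase dnc changed by -0.03 ± 0.08 and the transcription factor gene CrebB, which was dim, by -0.11 ± 0.16. Among the other neuronal lists, 1 of 24 synapse and neuron genes fell, the calcium channel gene cac (-0.23 ± 0.06), and 20 of the 24 were below 0. The cac call, at an adjusted p of 0.034, missed the threshold in 5 of 12 fits with 1 array left out, as without replicate 3 at 0 h (0.213). The sum of neuron markers was lower at 24 h in both arms, as given above, and its part in this result was not tested. Of 26 neuropeptide genes 1 rose, CCHa2, whose peptide is made in fat body and gut. It read 588, 532 and 515 at 0 h and 780, 804 and 725 at 24 h, a change of 0.49 ± 0.08. Without the 3 yolk arrays the change of CCHa2 was 0.22. Of 16 glial genes 2 rose, wrapper (0.28) and Miox (0.31), and 1 fell, bdl (-0.35 ± 0.06); the rises were 0 in number without replicate 1 or 3 at 0 h or without replicate 1, 2 or 3 at 24 h. Of 18 phototransduction genes 1 rose, ninaD, a scavenger receptor that takes up carotenoids (0.46 ± 0.08), and of 26 odorant binding protein genes 1 rose, Obp57a (0.33 ± 0.08; 0.148 as the adjusted p without replicate 3 at 0 h). None of 13 monoamine genes and none of 11 juvenile hormone genes passed.

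Antimicrobial peptide genes did not pass in conditioned heads in the fit used throughout. Of 10 tested genes, 7 were below 0, with a median of -0.31. DptB, diptericin B, read 2069, 1825 and 2210 at 0 h and 609, 1198 and 1399 at 24 h, lower on every array. Its change of -1.0 ± 0.43 did not pass (adjusted p = 0.227, limma). The standard error comes from all 12 arrays, and DptB read 147, 47.5 and 597 in non-conditioned heads at 24 h. With 1 array left out its adjusted p ran from 0.0544 to 0.505 (limma). Under other settings of the fit it went as low as 0.00331 (limma). Def, defensin, read 47.9, 64.2 and 46.6 at 0 h and 20.5, 17.2 and 25.2 at 24 h (-0.89 ± 0.29, adjusted p = 0.101, limma). For Def the adjusted p ran from 0.0104 to 0.302 with 1 array left out (limma). Under other settings it went as low as 0.00109 (limma). The immune-induced gene edin read 219, 62.3 and 75.4 at 0 h and 42.8, 107 and 239 at 24 h, and the groups overlapped. None of 20 immune recognition and signalling genes and none of 2 Turandot stress genes passed; TotC read 697, 543 and 342 at 0 h and 374, 554 and 189 at 24 h (-0.55 ± 0.30).

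Lists of general cell machinery moved little. All 26 proteasome genes were above 0, with a median of 0.12, but 1 passed, Prosalpha4 (0.27 ± 0.07, adjusted p = 0.0409), and it missed the threshold in 7 of 12 fits with 1 array left out, with the highest adjusted p (0.199) without replicate 2 at 24 h. Of 58 oxidative phosphorylation genes 53 were below 0, with a median of -0.16, and 2 passed as lower, SdhB (-0.21 ± 0.05) and ND-ACP (-0.23 ± 0.06). That count depended on the processing: it was 16 after quantile normalisation, 14 and 16 without replicates 1 and 2 of non-conditioned heads at 24 h, and 0 without any 1 of the conditioned arrays. None of 35 ribosomal protein genes passed, and their median of -0.06 turned to 0.01 after quantile normalisation. Of 69 mitochondrial ribosomal protein genes 1 fell, mRpL42 (-0.30 ± 0.08, adjusted p = 0.0453, and 0.225 without replicate 3 at 0 h). Of 10 heat shock and chaperone genes 1 fell, l(2)efl, a small heat shock protein (-0.31 ± 0.07, adjusted p = 0.02, and 0.105 without replicate 2 at 24 h). Of 11 iron handling genes 1 fell, Irp-1B, an iron regulatory protein of the aconitase family, which read 976, 1243 and 1048 at 0 h and 795, 894 and 838 at 24 h (-0.36 ± 0.07, adjusted p = 0.0112, and 0.074 without replicate 1 at 24 h). None of the 6 tested female and yolk genes and none of the 9 tested male genes passed.

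Of the 520 probe sets called in conditioned heads, 255 were called in the same direction in non-conditioned heads, which share no array with them but were fitted together and share the estimate of the spread. In non-conditioned heads 355 probe sets were higher (3.15%) and 229 lower (2.03%). With each array centred on its median that split was 511 higher and 159 lower. Of the 301 probe sets higher in conditioned heads, 161 (53.5%) were also called higher in non-conditioned heads, where they made up 45.4% of the higher calls. Of the 219 lower, 94 (42.9%) were also called lower, 41.0% of the lower calls there. Counting sign alone, 280 of the 301 were above 0 and 206 of the 219 below 0 in non-conditioned heads, with medians of 0.27 and -0.21. The 255 became 153 and 167 without replicate 3 of conditioned heads at 0 h and at 24 h, and 157 without replicate 3 of non-conditioned heads at 24 h, where the 584 calls of that arm became 294. The probe set called in opposite directions was that of Irp-1B. Across all 11261 probe sets, which are not independent, the changes in the arms correlated with r = 0.454.

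Many genes above moved by nearly the same amount in both arms. In non-conditioned heads the log2 change was 0.94 for CG7997, 0.87 for Cyp4ac1, 0.87 for PPO1, -1.80 for CG7214, -0.87 for CG7203, -1.04 for Cpr97Eb and -0.46 for tim. Other genes above did not: in non-conditioned heads the change was -0.15 for NimB1, 0.00 for EcR and 0.09 for Sod3. None of these 3 passed in non-conditioned heads, and none passed as an interaction. Over genes by their brightest probe set, 3.62% were higher and 2.13% lower there. The muscle list had a median of -0.27 there, with 10 lower, the cytochrome P450 list 9 higher and 1 lower, and the cuticle list 5 lower and 1 higher. Of the 19 genes that respond to neuronal activity, 6 fell and 1 rose in non-conditioned heads, with a median of -0.21. Hr38 changed by -0.58 and cbt by -0.65 there, so the fall of these genes was not confined to conditioned heads. The head fat body marker sum was higher at 24 h there too, as given above. Replicate 3 of non-conditioned heads at 0 h carried accessory gland transcripts (Acp98AB 351, against 4.48 and 1.09 on the other two arrays).

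**Figure D4:**
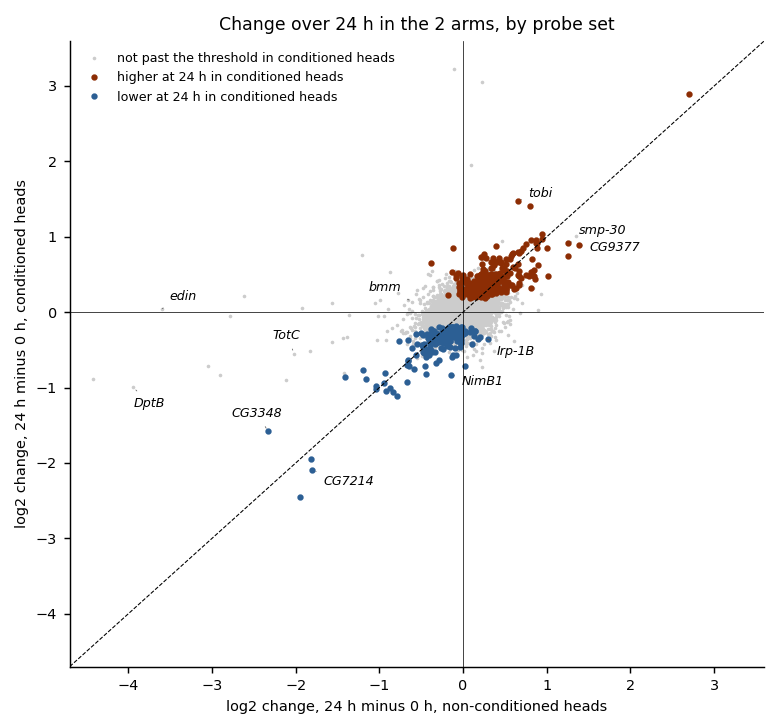
Each point is 1 of 11261 probe sets, at its log2 change from 0 h to 24 h in non-conditioned heads (horizontal) and conditioned heads (vertical); coloured points passed the threshold in conditioned heads, and the dashed line marks equal change. Most coloured points lie near the line, tobi lies above it at 1.48 against 0.65, and DptB and edin lie far to the left.

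The difference between the arms was tested as an interaction, the conditioned change minus the non-conditioned change. No probe set passed (0.00%), with 807 at an unadjusted p under 0.05, 10 at an adjusted p under 0.10 and a lowest adjusted p of 0.0594 in limma. With 1 array left out, 8 passed without replicate 3 of non-conditioned heads at 0 h, the array with accessory gland transcripts, 5 without replicate 1 of non-conditioned heads at 24 h, and 3 without replicate 3 of conditioned or replicate 2 of non-conditioned heads at 0 h. There were 2 without replicate 1 of conditioned heads at either time or replicate 3 of non-conditioned heads at 24 h. The lowest adjusted p of the whole set was shared by 3 genes. For tobi the change was larger by 0.83 ± 0.13 in conditioned heads, since its non-conditioned arrays went from 238, 229 and 263 to 446, 369 and 364. The lipase gene bmm, which frees fatty acids from stored triglyceride, did not pass in conditioned heads (399, 398 and 489 at 0 h; 454, 449 and 514 at 24 h; 0.14 ± 0.08), but fell by 0.61 on the log2 scale in non-conditioned heads, an interaction of 0.75 ± 0.12. Irp-1B fell in conditioned heads and rose by 0.29 in the others, an interaction of -0.65 ± 0.11. At 0 h, tobi and bmm were lower, and Irp-1B higher, on all 3 conditioned arrays than on any non-conditioned array. This difference is part of the interaction by which the genes were chosen, and is not a separate result. At 24 h the conditioned and non-conditioned arrays overlapped for bmm (454, 449 and 514 against 460, 357 and 420). They also overlapped for Irp-1B (795, 894 and 838 against 833, 888 and 885). For tobi they did not (487, 534 and 473 against 446, 369 and 364).

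The next interactions were those of CG7408 (1.03 ± 0.18, adjusted p = 0.0676), which rose in conditioned heads from 21.1, 19.9 and 25.1 to 39.5, 41.2 and 50.4, alpha-Est2 (0.44 ± 0.08), CG17646 (0.58 ± 0.12), CG15199 (-0.87 ± 0.15), CG1628 (-0.54 ± 0.10), Pde1c (-0.54 ± 0.10) and lola (-0.53 ± 0.10). The conditioned change itself passed for CG7408, alpha-Est2 (0.38) and CG17646 (0.52) as higher and for CG1628 (-0.36), for 1 probe set each of Pde1c (-0.33) and lola (-0.43) as lower, and did not for CG15199 (0.03). The other 2 tested probe sets of Pde1c did not pass (0.12 and -0.21), and of the 15 tested for lola 2 passed, over a range of -0.43 to 0.13. For DptB the fall in non-conditioned heads was -3.94 against -1.0, an interaction of 2.94 ± 0.61 with an adjusted p of 0.125, and for edin -3.59 against 0.05, an interaction of 3.64 ± 0.88 with an adjusted p of 0.221. Of 10 antimicrobial peptide genes 7 fell in non-conditioned heads, where the median was -1.23. The difference between the arms in this group of genes did not pass for any member.

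The array titles come in 2 forms, one with a # sign (8 arrays, 2 per group) and one without (4 arrays, 1 per group), and the fit has a term for the form. In conditioned heads the yolk signal went with 24 h among the # arrays and with 0 h in the remaining pair. Fitted alone, the # arrays called 105 probe sets higher and 46 lower at 24 h. In the pair that this fit did not use, 95 of the 105 (90.5%) were also higher and 46 of the 46 (100%) also lower, against 61.6% and 66.2% of all probe sets above and below 0. The median changes were 0.51 and 0.49 for the higher set, and -0.55 and -0.52 for the lower set, in the # arrays and in the pair. The pair holds 1 array per time and the probe sets are not independent, so these shares are a description and not a test. The higher probe sets of opposite sign in the pair included Yp1, Yp2 and Yp3. With a term for yolk signal, 422 probe sets passed, of which 393 were among the 520. Without the 3 yolk arrays, which leaves 2 arrays at 0 h and 1 at 24 h, 17 passed, 16 of them among the 520, and 519 of the 520 kept their sign. The lone array at 24 h is then taken to vary like the other groups.

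**Figure D5:**
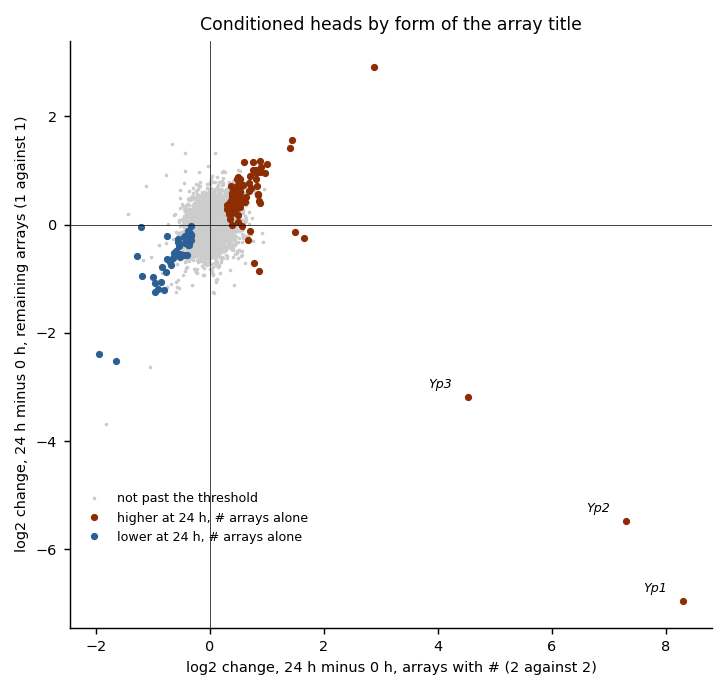
Each point is 1 probe set, at its log2 change from 0 h to 24 h in the 4 conditioned arrays with # in the title (horizontal, 2 against 2) and in the remaining pair (vertical, 1 against 1). The 105 probe sets called higher in the # arrays lie mostly in the upper right and the 46 called lower lie in the lower left, while Yp1, Yp2 and Yp3 lie in the lower right.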

How the data were processed

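The deposited values are linear intensities of Affymetrix probe sets, 1 value per probe set and array; the software that the authors used is not given in the sources used here, and all 12 arrays share the same trimmed mean, so the number of arrays and not a read depth limits the precision. Of 18952 probe sets, 183 controls were left out. Gene symbols came from the platform's annotation, updated through gene IDs to RefSeq, which gave 13647 probe sets with 1 symbol, 402 with several and 4720 with none. Values were used as log2(intensity + 16), and the 60% of probe sets with the highest mean (11261) were tested. All 12 arrays entered 1 fit in limma 3.58.1 (R 4.3.3), with a mean per group, a term for the title form, a variance trend and Benjamini-Hochberg adjustment, which left 7 residual degrees of freedom. The script was tested on simulated data. Arrays were grouped by their descriptions.

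Members and the 33 gene lists were chosen with earlier results of these data known. Misspelled or wrong entries of the lists (eye, cpx, tan, Trh, nos, mlx) were removed or corrected after the files were read. The named genes are the 12 largest changes per direction among called, non-overlapping probe sets with 1 symbol, up to 4 called members per list, the 5 strongest interactions per direction and a set of clock, yolk and memory genes. DptB, edin, fit, PPO2, Hpd, Faa, Tat, Cyp6w1, Cpr49Ag, Cpr49Ae, Cpr60D, Zasp52, Mlp84B, Mlc2, Mf, Act87E and the genes and probe sets of the closing section were named after their values were seen.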

Additional observations from a re-analysis of the deposited data

How the results depend on the processing

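No paired analysis was possible because the replicate numbers follow accession order and pair no arrays. The 520 calls in conditioned heads became 151 with the # arrays alone, 334 with no filter, 234 with no variance trend, 975 with array weights, 1096 with the conditioned arrays alone and 17 without the 3 yolk arrays, and ran from 222 to 723 with 1 array left out. The 584 calls in non-conditioned heads became 245 with the # arrays alone, 341 with no variance trend and 278 with those arrays alone, and ran from 294 to 740 with 1 array left out. The 0 interaction calls became 6 with the # arrays alone, 6 with median centring, 4 with an offset of 64, 1 with no filter, 18 with array weights, 2 without the yolk arrays and 3 with a yolk term, and ran from 0 to 8 with 1 array left out. The 255 shared calls became 81 with the # arrays alone, 128 with no variance trend and 15 without the yolk arrays, and ran from 153 to 299 with 1 array left out. The cause of these shifts was not tested, but several of these fits use fewer arrays. Of 80 named genes past the threshold, 43 passed with each array left out in turn, 37 missed at least once and 0 reversed.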

Other observations

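Among probe sets that passed the threshold in conditioned heads, some of the large changes belonged to probe sets with no symbol here. Probe set 1628699_at read 225, 219 and 189 at 0 h and 1607, 1890 and 1516 at 24 h, a log2 change of 2.89 ± 0.08, and rose by 2.70 in non-conditioned heads as well. Probe set 1625164_at rose by 1.40 ± 0.12. The largest falls among those with no symbol were those of 1629530_at (-2.45 ± 0.49) and 1641474_s_at (-1.94 ± 0.24), which in non-conditioned heads changed by -1.95 and -1.82.

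Some called genes lie next to each other on the chromosome. Of 6000 adjacent gene pairs with both genes tested, 25 had both called, 21 in the same direction and 4 in opposite ones. They include Cyp4ac1 (0.96) with Cyp4ac2 (0.50), the lysosomal mannosidase genes LManI (0.51) and LManII (0.36), the zinc finger genes disco (0.35) and disco-r (0.32), CG3513 (0.66) with CG16704 (0.63), and CG6912 (0.71) with CG3984 (0.71). Adjacent copies of a gene can share probe sequence, which was not analysed here. Over all 8610 genes, 2.90% were called higher and 2.03% lower. Whether 25 pairs is more than these shares would give was not tested, so no conclusion on clustering is drawn from the count.

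Of the called genes, 56 had several tested probe sets. In 4 of them every probe set passed, in 34 all probe sets had one sign, in 22 both signs occurred, and 7 had 2 or more called probe sets. In St3 the called probe sets went in opposite directions (-0.46 and 0.39).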
